A study of Mus musculus with 2 samples.

Results

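The enzymes that modify and crosslink collagen were followed in a pair of mouse striatal cell lines that differ in the huntingtin gene. The set holds 10 genes, chosen by name from the 23176 genes of the table: 5 lysyl oxidases (Lox, Loxl1, Loxl2, Loxl3 and Loxl4), 3 lysyl hydroxylases (Plod1, Plod2 and Plod3) and 2 catalytic subunits of collagen prolyl 4-hydroxylase (P4ha1 and P4ha2). All 10 carried a test, as did 12740 genes of the table. The STHdhQ7 line has the genotype HdhQ7/Q7 and the STHdhQ111 line the genotype HdhQ111/Q111, in which a longer CAG repeat gives huntingtin an expanded polyglutamine run. Both come from the striatum of embryonic day 14 on a 129SvEv/CD1 background, had fewer than 15 passages, grew at 33 °C and spent 2 days at 39 °C to halt division. Such STHdh lines are conditionally immortalised with a temperature-sensitive viral antigen, which limits them as a model of striatal neurons. Each line is 1 sample whose title names 3 replicates, and the table gives 1 combined FPKM (fragments normalised for transcript length and library size) per line. No spread between replicates can therefore be given, the depth is unknown, and effects of genotype cannot be told apart from other differences between these cell lines.

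Collagen chains are modified while they fold in the endoplasmic reticulum and are crosslinked after secretion. Prolyl 4-hydroxylases convert prolines to hydroxyprolines that hold the triple helix together, and lysyl hydroxylases convert lysines to hydroxylysines. Lysyl oxidases are copper enzymes that act outside the cell. They oxidise lysines and hydroxylysines of collagen, and lysines of elastin, into aldehydes that join neighbouring molecules. All of these hydroxylases need iron, oxygen and 2-oxoglutarate.

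Of the 10 enzyme genes, Lox, Loxl4 and P4ha2 rose in STHdhQ111, none fell and 7 did not pass the test. A gene is referred to as called where the q-value in the authors' deposited table is 0.05 or less. Across all genes with a test, 13.5% were called, 6.35% higher and 7.17% lower in STHdhQ111. The median log2 fold change of the 10 genes was 0.39, beside -0.06 over all tested genes with a fold change. The 10 levels ran from 11.1 to 59.6 FPKM in STHdhQ7 and from 12.7 to 426.7 FPKM in STHdhQ111, so every member was detected in both lines. Without replicate values, it cannot be said which neighbours in the order of levels within a line differ beyond their spread.

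**Figure D1:**
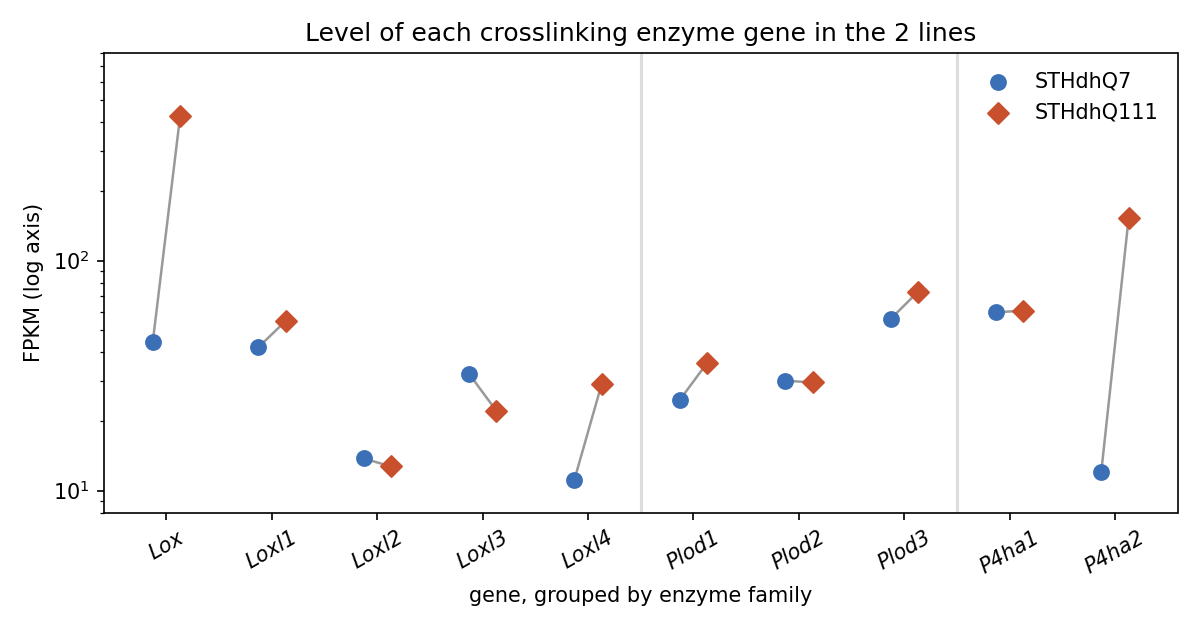
FPKM of each of the 10 genes (log axis) in STHdhQ7 (circles) and STHdhQ111 (diamonds), 1 combined value per line, with a grey line joining the pair and vertical lines between the 3 families. Lox and P4ha2 have the widest gaps, from 44.4 to 426.7 FPKM and from 12.1 to 153.9 FPKM.

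Lox encodes the founding lysyl oxidase, which crosslinks fibrillar collagen and elastin. Its locus lies on chromosome 18 at 52676892 to 52689362 (mm9 build, as are all loci of the table). Lox measured 44.4 FPKM in STHdhQ7 against 426.7 FPKM in STHdhQ111, a 9.61-fold higher value. In the order of FPKM among tested genes it moved from place 1818 to place 142. In the authors' deposited table the log2 fold change of Lox is 3.26 (implied standard error 0.42, 95% interval 2.43 to 4.10, q = 1.42e-12). Lox had the highest level of the 10 genes in STHdhQ111 but the third highest in STHdhQ7, after P4ha1 and Plod3.

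Loxl4, a lysyl oxidase with scavenger receptor repeats ahead of its catalytic domain, rose by less. Its locus lies on chromosome 19 at 42666769 to 42687296. Loxl4 was listed at 11.1 FPKM in STHdhQ7, the lowest of the 10 levels there, and at 29.1 FPKM in STHdhQ111, a 2.62-fold higher value. Its entry in the authors' deposited table is a log2 fold change of 1.39 (implied standard error 0.38, 95% interval 0.65 to 2.13, q = 0.00299). Measured against this, the log2 fold change of Lox was larger by 1.88 (95% interval 0.76 to 2.99).

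The remaining lysyl oxidases were not called. Loxl1, known for its part in elastic fibre upkeep, lies on chromosome 9 at 58135530 to 58161019 and measured 41.9 FPKM in STHdhQ7 against 54.6 FPKM in STHdhQ111. For Loxl1 the authors' deposited table gives a log2 fold change of 0.38 (95% interval -0.37 to 1.13). Loxl2, an oxidase that also acts on the type IV collagen of basement membranes, lies on chromosome 14 at 70009283 to 70095641 and measured 13.8 and 12.7 FPKM. These Loxl2 values are uncertain, since only 54.1% of the 36-base words of its GENCODE M21 transcripts occurred in no other gene. Of its 5358 words, 2313 also occurred in the unprocessed pseudogene Gm21451. Loxl3, needed for palate and spine development, lies on chromosome 6 at 82984218 to 83004565 and measured 32.2 and 22.2 FPKM. The authors' deposited table gives Loxl3 a log2 fold change of -0.54 (95% interval -1.42 to 0.35). The table gives Htra2, a mitochondrial protease gene, the same locus as Loxl3, with values of 24.7 and 23.2 FPKM. Of 4666 Loxl3 words, 443 occurred in Htra2 on the opposite strand, and the library method is not described as marking strand, so reads there cannot be assigned to 1 of the genes.

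The 5 oxidases therefore did not change alike. Intervals for the difference between log2 fold changes were computed for all 10 pairs of oxidases from the implied errors, taken as independent, and 6 excluded 0. These were the 4 pairs of Lox with another oxidase and the pairs of Loxl4 with Loxl2 and with Loxl3. Every pair with Loxl2 or Loxl3 carries the limits on assigning reads to those genes that are given above. The pairs of Lox with Loxl1 and with Loxl4 do not, since the words of these genes occurred in no other gene. The intervals were not adjusted for the number of pairs. The difference between Lox and Loxl3 was 3.80 (95% interval 2.59 to 5.02). The difference between Loxl4 and Loxl1 was 1.01 and its interval, -0.05 to 2.06, held 0.

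**Figure D2:**
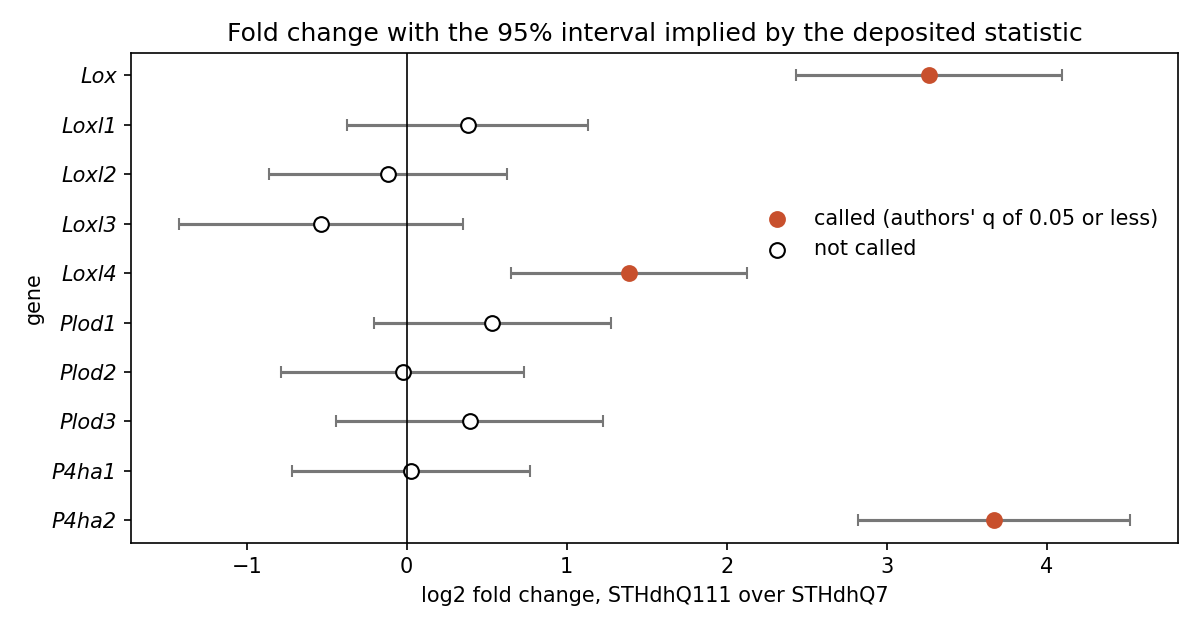
log2 fold change of each gene, STHdhQ111 over STHdhQ7, in the authors' deposited table (points), with bars for the 95% interval implied by the deposited statistic; filled points are called. Lox at 3.26 and P4ha2 at 3.67 stand to the right of the other intervals, and the 7 open points have intervals that hold 0.

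P4ha2 had the largest fold change of the 10 genes. It encodes the catalytic subunit of type II collagen prolyl 4-hydroxylase, and P4ha1 that of the type I enzyme, each paired with the subunit encoded by P4hb. P4ha2 lies on chromosome 11 at 53914426 to 53945169 and measured 12.1 FPKM in STHdhQ7 against 153.9 FPKM in STHdhQ111, a 12.7-fold higher value. It moved from place 5605 to place 430 in the order of FPKM. Its log2 fold change is 3.67 in the authors' deposited table (implied standard error 0.43, 95% interval 2.82 to 4.52), with q entered as 0. P4ha1 lies on chromosome 10 at 58786044 to 58836052 and measured 59.6 FPKM in STHdhQ7 against 60.6 FPKM in STHdhQ111. P4ha1 has a log2 fold change of 0.03 in the authors' deposited table (95% interval -0.72 to 0.77). The log2 fold changes of P4ha2 and P4ha1 differed by 3.64 (95% interval 2.51 to 4.77). By the combined values, P4ha1 stood above P4ha2 in STHdhQ7 and below it in STHdhQ111. That order of levels was not tested, and the interval does not cover it.

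The promoters of this pair, and of Loxl4, are shown because 2 subunits that take the same place in the enzyme differed in fold change. RefSeq promoters (GRCm38.p6 build, 300 bases around the start) were matched for 5 of the 10 genes, and Lox was not among them. They were searched on both strands for the core of the hypoxia response element, ACGTG or GCGTG, since several of these enzymes are known targets of hypoxia-inducible factors. Capitals mark the core, or its reverse complement CACGT or CACGC, 5′ to 3′ on the strand of the gene, and ACGTG is also part of the E-box CACGTG.
P4ha2, chr11:54100674-54100973, + strand: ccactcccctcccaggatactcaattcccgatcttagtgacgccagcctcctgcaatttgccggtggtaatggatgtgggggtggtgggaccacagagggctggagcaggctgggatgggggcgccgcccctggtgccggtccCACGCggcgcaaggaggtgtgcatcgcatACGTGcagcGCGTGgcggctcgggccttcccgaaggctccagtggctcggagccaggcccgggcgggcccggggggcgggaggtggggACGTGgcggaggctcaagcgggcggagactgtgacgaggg
P4ha1, chr10:59323046-59323345, + strand: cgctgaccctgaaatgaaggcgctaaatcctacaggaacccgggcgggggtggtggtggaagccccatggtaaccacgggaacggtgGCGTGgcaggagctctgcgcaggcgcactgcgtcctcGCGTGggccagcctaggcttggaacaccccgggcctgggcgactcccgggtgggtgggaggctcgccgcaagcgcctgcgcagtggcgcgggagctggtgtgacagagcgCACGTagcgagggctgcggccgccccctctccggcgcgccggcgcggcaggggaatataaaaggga
Loxl4, chr19:42612757-42613056, - strand: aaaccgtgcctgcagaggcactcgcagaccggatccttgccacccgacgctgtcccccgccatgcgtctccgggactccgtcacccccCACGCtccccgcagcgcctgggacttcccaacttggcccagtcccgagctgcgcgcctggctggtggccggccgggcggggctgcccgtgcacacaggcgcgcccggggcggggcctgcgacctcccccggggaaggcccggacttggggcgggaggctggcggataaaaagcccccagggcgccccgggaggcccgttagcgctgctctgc
The promoter of the called P4ha2 held 4 cores and that of the uncalled P4ha1 held 3. The Loxl4 promoter held 1 core, and those of the uncalled Plod1 and Plod3 held 2 and 4. Of all 32851 RefSeq promoters of this length, 43.8% held at least 1 core and 8.93% held 3 or more. The core contains a CpG, and the 5 promoters held 19 to 32 CpGs, against a median of 7 over all promoters. All 5 matched promoters, 2 of called and 3 of uncalled genes, held a core, and a match describes the letters only. The part of these cores in the levels was not tested.

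None of the lysyl hydroxylases was called. Plod1, which hydroxylates lysines of the collagen helix, lies on chromosome 4 at 147283862 to 147310885 and measured 24.8 FPKM in STHdhQ7 against 35.9 FPKM in STHdhQ111. Plod1 has a log2 fold change of 0.54 in the authors' deposited table (95% interval -0.21 to 1.28). Plod2, which hydroxylates the telopeptide lysines that give stable crosslinks, lies on chromosome 9 at 92433639 to 92503265 and measured 30.1 and 29.5 FPKM. For Plod2 the authors' deposited table gives a log2 fold change of -0.03 (95% interval -0.78 to 0.73), which became 0.027 when the median of expressed genes was set to 0. Plod3, which also adds sugars to hydroxylysine, lies on chromosome 5 at 137458071 to 137472516 and measured 55.7 and 73.2 FPKM. The authors' deposited table gives Plod3 a log2 fold change of 0.39 (95% interval -0.44 to 1.22). The table gives Znhit1 the same locus, and 88.8% of the Plod3 words occurred in no other gene. All 3 intervals for differences between these genes held 0, the widest span being that of Plod3 against Plod2, from -0.71 to 1.54. As folds, the intervals ran from 0.866 to 2.43 for Plod1, from 0.581 to 1.66 for Plod2 and from 0.738 to 2.34 for Plod3. Among all called genes with a fold change, the smallest was 2.03-fold in either direction. An uncalled gene may still differ by that much or more, since the intervals of Plod1 and Plod3 reach past 2.03-fold.

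Summed over the family, lysyl oxidase RNA was 3.80-fold higher in STHdhQ111, at 545.4 FPKM against 143.5 FPKM. Lox made up 30.9% of that sum in STHdhQ7 and 78.2% in STHdhQ111. The share of Loxl1 went from 29.2% to 10.01% and that of Loxl3 from 22.5% to 4.07%. Without Lox the log2 ratio of the summed levels was 0.26 in place of 1.93, so the higher sum rested on Lox. The prolyl hydroxylase subunits summed to 71.7 FPKM in STHdhQ7 and 214.5 FPKM in STHdhQ111. P4ha2 made up 16.9% of that sum in STHdhQ7 and 71.7% in STHdhQ111, and without it the log2 ratio was 0.025 in place of 1.58. Lysyl hydroxylases summed to 110.5 and 138.6 FPKM, with Plod3 at 50.4% and 52.8%, so the make-up of that family was similar in both lines. These sums and shares are descriptions of 1 value per line, with no test.

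**Figure D3:**
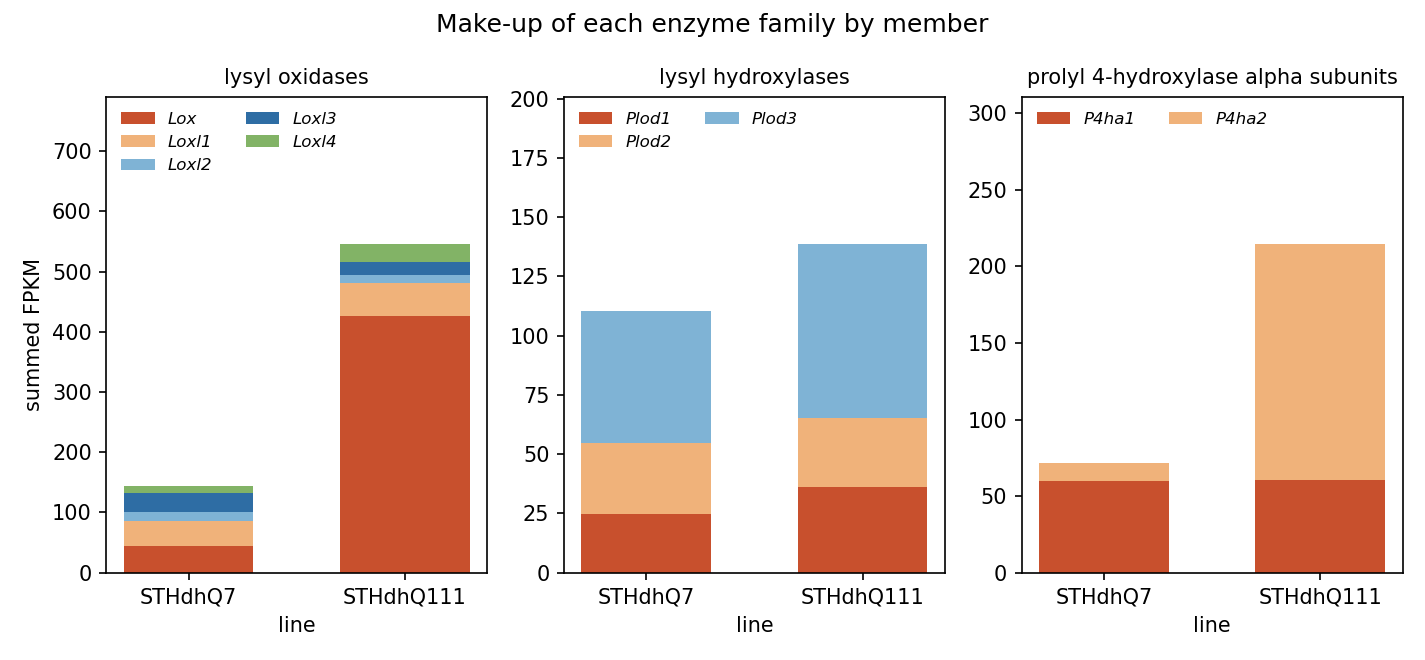
Summed FPKM of each enzyme family in each line, stacked by member, 1 combined value per line. Lox fills 78.2% of the oxidase bar and P4ha2 71.7% of the prolyl hydroxylase bar in STHdhQ111, while the lysyl hydroxylase bars keep similar parts.

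Genes beside the members were read for the context of each locus. Of the 20 nearest tested neighbours, 1 on each side of each member, 1 was called higher and 3 were called lower, beside the 13.5% called over all tested genes. Pdlim4, which encodes a LIM protein of the actin cytoskeleton, ends 31907 bases before P4ha2 and rose from 18.0 to 59.5 FPKM. In the authors' deposited table Pdlim4 has a log2 fold change of 1.73 (implied standard error 0.42, q = 0.000628). On the other side Acsl6, 172157 bases after P4ha2, measured 2.13 FPKM in STHdhQ7 against 0.0138 FPKM in STHdhQ111 and was not called. The genes called lower lay beside the uncalled Plod2 and Loxl1. Plscr4, a scramblase family gene before Plod2, fell from 1.42 to 0.0610 FPKM, and 1190002N15Rik, 1915018 bases after it, from 9.33 to 1.08 FPKM. The provisional gene 4930461G14Rik, after Loxl1, was called at 2.36 FPKM in STHdhQ7 and is listed at 0 in STHdhQ111. Srfbp1, the nearest tested gene before Lox, measured 16.2 and 10.5 FPKM, and the nearest before Loxl4, D19Ertd386e, at 7.45 and 7.06 FPKM. Neither was called.

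The substrates of these enzymes moved in both directions. Of 13 tested genes of the list of fibrillar collagens, type IV collagen and elastin, 4 were called higher, 2 were called lower and 7 were not called, which is 46.2% called beside 13.5% of all tested genes (6.35% higher and 7.17% lower). Both chains of type I collagen rose, Col1a2 from 11.5 to 532.6 FPKM and Col1a1 from 451.9 to 1487 FPKM. Col5a2 rose from 45.3 to 192.4 FPKM and Col5a3 from 1.57 to 4.91 FPKM, both chains of the type V collagen that helps start type I fibrils. Col11a1 fell from 6.86 to 0.115 FPKM, and Col4a1, a basement membrane chain, fell from 66.2 to 26.3 FPKM. Col3a1 (145.7 and 206.3 FPKM), Col5a1 (37.9 and 81.1 FPKM) and Col4a2 (47.4 and 25.6 FPKM) were the most abundant uncalled members. Col5a1, 2.14-fold higher in STHdhQ111, lay just outside the threshold (the authors' q in their deposited table = 0.0506). Elastin (Eln), the other substrate of the oxidases, was low in both lines, at 0.690 and 0.773 FPKM, and did not pass. This list had a median log2 fold change of 1.06, but 0.45 after 1 was added to each FPKM.

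Most other genes of collagen maturation were not called. The list holds the partner subunits, chaperones, procollagen proteinases, copper carriers and further modifying enzymes. Of its 26 tested genes, 4 were called higher, 2 were called lower and 20 were not called, which is 23.1% called beside the 13.5% of all tested genes. The median log2 fold change was 0.18. Adamts14, a procollagen N-proteinase, rose from 0.481 to 2.35 FPKM, and Tgm2, a transglutaminase that forms crosslinks of another kind, rose from 2.31 to 8.33 FPKM. Creb3l1, a transcription factor known for activating collagen genes in bone, rose from 13.9 to 38.1 FPKM, and Fkbp9, a prolyl isomerase of the endoplasmic reticulum, from 79.9 to 208.6 FPKM. Pcolce2, an enhancer of procollagen C-proteinase, fell from 11.7 to 1.37 FPKM. Leprel1, the older symbol of the prolyl 3-hydroxylase gene P3h2, fell from 22.8 to 10.1 FPKM.

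Several partners of the members were not called, and P4hb, Serpinh1 and Pcolce were abundant in both lines. P4hb, the shared subunit of the prolyl 4-hydroxylases, measured 295.5 FPKM in STHdhQ7 against 309.6 FPKM in STHdhQ111. The collagen chaperone Serpinh1 measured 523.1 and 705.7 FPKM, and Pcolce, the relative of Pcolce2, measured 495.96 and 704.5 FPKM. P4ha3, a further catalytic subunit, measured 3.83 and 7.37 FPKM and was not called (the authors' q in their deposited table = 0.198). Adding P4ha3 to the prolyl hydroxylase sum gave a log2 ratio of 1.56. Bmp1, the proteinase that releases procollagen C-propeptides and activates the Lox precursor, measured 27.4 and 52.2 FPKM. It was not called (the authors' q in their deposited table = 0.164). The values of Bmp1 and P4ha3 were 1.91-fold and 1.92-fold higher in STHdhQ111, below the smallest called fold of 2.03. That fold is not a threshold for calling, since Col5a1, 2.14-fold higher in STHdhQ111, was not called. The copper transporter Atp7a, which supplies secreted copper enzymes, measured 4.16 and 4.64 FPKM and was not called.

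Other genes known to be inducible by hypoxia were read beside the members. Of 24 tested, 2 were called higher, 2 were called lower and 20 were not called. That is 16.7% called, near the 13.5% of all tested genes, and the median log2 fold change was -0.19. Car12, a carbonic anhydrase, rose from 0.824 to 8.60 FPKM and Adm, which encodes the peptide adrenomedullin, from 3.09 to 14.5 FPKM. Egln3, an oxygen-sensing prolyl hydroxylase, fell from 3.77 to 0.439 FPKM and Ndrg1 from 147.3 to 52.4 FPKM. The glycolytic genes Gapdh (540.2 and 487.4 FPKM), Aldoa (497.6 and 407.9 FPKM) and Ldha (505.7 and 306.6 FPKM) were the most abundant uncalled members. Of the factors themselves, Hif1a measured 22.2 and 41.2 FPKM, Epas1 at 0.890 and 0.842 FPKM and Arnt at 26.95 and 27.05 FPKM. None was called.

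**Figure D4:**
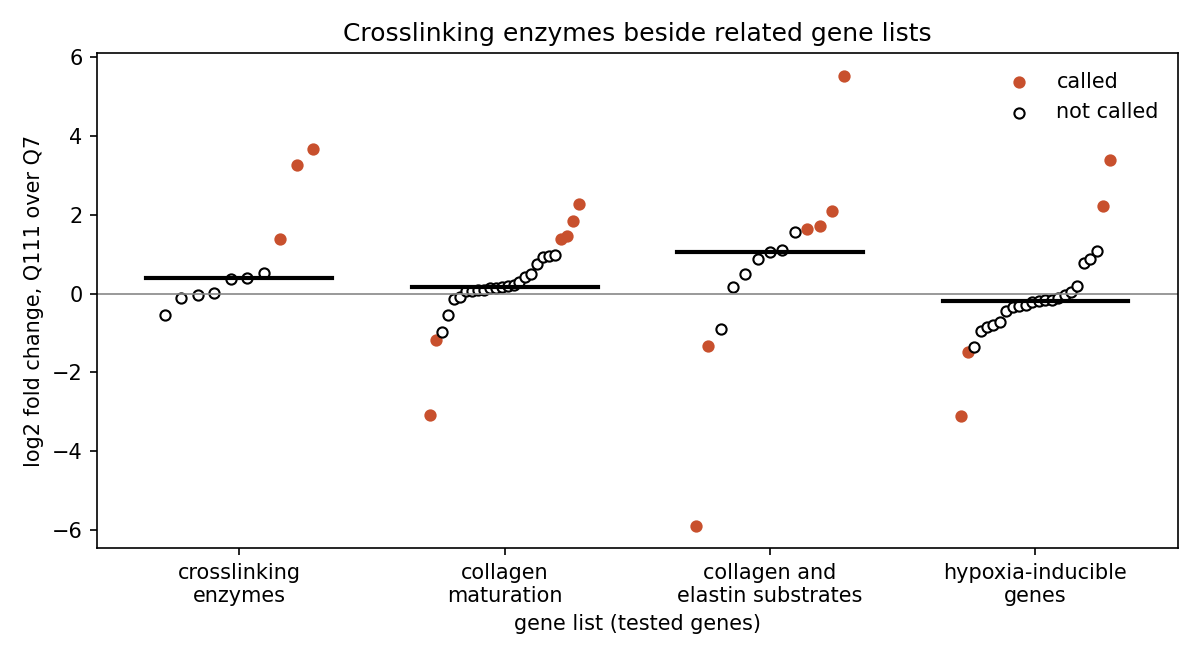
log2 fold change, STHdhQ111 over STHdhQ7, of the tested genes of 4 lists, each point 1 gene (filled where called) and each bar the list's median. The crosslinking enzymes have a median of 0.39, the maturation genes 0.18, the substrates 1.06 and the hypoxia-inducible genes -0.19.

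Markers of cell types were read beside these values, since both lines are labelled as striatal derived. Of 4 tested neural progenitor markers 3 fell in STHdhQ111, Sox2 from 72.01 to 0.561 FPKM, Pax6 from 14.9 to 0.0213 FPKM and Nes from 35.99 to 0.999 FPKM. Vim, by far the most abundant of the 4, measured 3302.7 and 2482.5 FPKM and was not called. All 5 striatal neuron markers were under 0.5 FPKM in both lines, as were all 4 endothelial, all 4 leukocyte and all 4 oligodendrocyte markers. Of 5 neuron markers 4 were under that level, and Tubb3 measured 2.42 and 3.62 FPKM. Of 4 astrocyte markers 3 were under it, and Aldh1l1 measured 10.4 and 9.29 FPKM. Neither Tubb3 nor Aldh1l1 was called. The 10 mesenchymal, fibroblast and mural markers summed to 587.9 FPKM in STHdhQ7 and 584.7 FPKM in STHdhQ111. Acta2 was the largest part of both sums, at 341.6 and 311.0 FPKM, so the sums mostly follow this gene. Of the 7 tested genes of this list only Pdgfra was called, rising from 3.34 to 9.28 FPKM. Thy1 was listed at 0 in STHdhQ111 and Rgs5 at 0 in STHdhQ7. Among 3 tested osteoblast and chondrocyte markers Col10a1 rose from 0.405 to 8.69 FPKM and Bglap fell from 39.9 to 11.6 FPKM. The part of these markers in the enzyme results was not tested. In such samples of many cells, fewer cells of a type and less RNA per cell cannot be told apart.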

How the data were processed

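Poly(A) RNA was fragmented and copied with random primers into sequencing libraries, per the labels' protocols. The submitters' processing notes name the mm9 build and the tools Bowtie 0.12.7, TopHat 1.4.0, Cuffdiff and Cufflinks 2.0.2; how they were set, and with which annotation, is not given in the sources used here. Per the file headers, the deposited table holds 1 FPKM per line, which the authors made from all replicates together. It also holds, per the file headers, their log2 fold change and test statistic (both entered as a score, the first because it has a placeholder where a line is at 0) and their p-value and q-value. Nothing in the labels says that replicates were separate cultures, so the deposited p-values may reflect only technical variation. The standard error implied by the deposited table is the ratio of the log2 fold change to the statistic, and the deposited p-values equalled the normal tail of the statistic to within 2.68e-06. Its median over tested genes was 0.44.

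Intervals are normal intervals from that error, and depth is unknown. No test of the present work was run in the main results. The alternatives readjusted the deposited p-values, and recentring recomputed p-values and q-values from the shifted fold changes and the implied errors. The q-values cover all 12740 tested genes. The members and lists were chosen with earlier results of these data known. The rule named all 10 members, the called genes of each list and its 3 most abundant uncalled ones, and called neighbours. P4ha3, Bmp1, Atp7a, Eln, the hypoxia factors, the uncalled neighbours and the markers named were chosen outside that rule, most after their values were seen. Locus starts were read as 0-based and raised by 1. Words of 36 bases were compared on both strands of GENCODE M21 transcripts. The alternatives changed the q threshold, the adjustment, the low-value filter, the minimum fold, the pseudocount, the scaling and the members summed. The adjustments, the recentring and the intervals were tested on simulated data. That noise was drawn from the implied errors, so the test cannot show whether these errors cover variation between cultures. Python 3.11.15, numpy 2.4.6, pandas 2.3.3, scipy 1.17.1 and matplotlib 3.10.9 were used.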

Additional observations from a re-analysis of the deposited data

How the results depend on the processing

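Lox, Loxl4 and P4ha2 were called at a q of 0.01, at a q of 0.10, under the Benjamini-Yekutieli adjustment and with only genes at a mean of 1 FPKM or more. With a change of at least 4-fold required, Lox and P4ha2 were called and Loxl4 was not. Of all tested genes 13.5% (1723) were called, 9.61% at a q of 0.01 and 16.1% at a q of 0.10. The share was 8.47% (1079) under the Benjamini-Yekutieli adjustment and 8.23% (1048) at 4-fold or more. With only genes at a mean of 1 FPKM or more it was 12.3% of 11534. With the 4-fold minimum, the maturation list had 1 gene called higher and 1 lower, the substrate list 2 higher and 1 lower, and the hypoxia list 2 higher and 1 lower; these lists then count fewer genes by construction. The maturation list had 1 gene called lower at a q of 0.01 and 1 under Benjamini-Yekutieli, where the substrate list also had 1 called lower. At a q of 0.10 the substrate list had 5 genes called higher, with Col5a1 added. A pseudocount of 1 gave the substrate list a median of 0.45, a value drawn towards 0 by its low genes. Recentring by the median of expressed genes (-0.05) turned the log2 fold change of Plod2 to 0.027 and left the sign of the other 9 members as it was; with q-values recomputed on the recentred values, all 10 members kept their call. The log2 ratio of the oxidase sum was 0.26 without Lox, and that of the prolyl hydroxylase sum was 3.67 without P4ha1 and 0.025 without P4ha2. Adding P4ha3, which gave 1.56, was chosen after seeing the data. No paired analysis was possible because the table holds 1 combined value per line, so no replicate could be left out either. Depth is unknown, so its limit on the uncalled members could not be measured apart from their intervals.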
